A study of Mus musculus with 8 samples.

Results

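Lrg1 and 9 genes of endothelial TGF-beta and BMP signalling were followed in single cardiac endothelial cells (EC) of healthy mice and of mice 7 days after myocardial infarction (MI). The 10 genes were taken by name from the 16791 genes of the deposited count table. They were Lrg1, the receptors Eng, Acvrl1, Tgfbr1, Tgfbr2 and Bmpr2, the inhibitory Smads Smad6 and Smad7, and the target genes Id1 and Id3. All 10 were present in the table, and all 10 passed the filter on low counts in the comparison over all EC.

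The adult mice of both groups carried Pdgfb-iCreERT2 with the R26R-Brainbow2.1 (Confetti) reporter, so the label marks cells in which Cre driven by the Pdgfb promoter had been active, together with their offspring, and both groups received tamoxifen at 150 mg/kg. In the MI group (n = 4) the left anterior descending coronary artery was tied permanently 14 days after tamoxifen, and hearts of both this group and the healthy controls (n = 4) were taken 21 days after tamoxifen. The healthy controls had no operation, whereas the MI mice were anaesthetised, ventilated, opened at the thorax and given an analgesic. Effects of the operation and of the infarct therefore cannot be told apart in the comparisons of MI with healthy mice. Ventricles were digested, Confetti+ CD31+ podoplanin- cells were sorted, and 1 10X Chromium 3' library was made per mouse. A library counts unique molecular identifiers (UMIs), 1 for each captured transcript, near the end of the transcript, so levels are not compared here between genes.

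TGF-beta and BMP ligands bind pairs of type I and type II receptors, which phosphorylate receptor Smads. These enter the nucleus with the common partner Smad4 and switch on target genes, among them the Id genes and the inhibitory Smads that feed back on the receptors. In endothelium, the co-receptor endoglin and the type I receptor encoded by Acvrl1 carry BMP signals that hold vessels in a resting, properly sized state, and loss of either gene causes hereditary haemorrhagic telangiectasia. LRG1, the product of Lrg1, is a secreted leucine-rich glycoprotein that binds endoglin and modifies the endothelial response to TGF-beta.

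The table held 31028 cells, with 6764977 to 8793655 UMIs per healthy mouse and 15865234 to 27244947 per MI mouse. EC were the 28859 cells in which the summed UMIs of 12 endothelial genes exceeded those of each of 4 lists for haematopoietic, mural, fibroblast, and erythroid or platelet cells (2661 to 4773 EC per mouse). The median EC held 1471.5 to 2080 UMIs in healthy and 3403 to 4676 UMIs in MI mice. Cells were copied between healthy libraries. Healthy 228 and Healthy 239 had 2041 barcodes in common, and 2030 of these were copies with at least 90% matched UMIs. Healthy 227 and Healthy 228 shared 316 barcodes, of which 301 were copies, and Healthy 239 and Healthy 240 shared 20, of which 2 were copies. No other pair of mice, and no pair of MI mice, held a copy, although up to 40 barcodes were shared. The results keep the copies as deposited and give the values without them where a call changed. Ddx3y, a Y-linked gene, was counted at 74.4 CPM in Healthy 227 and 81.8 CPM in MI 244 and had 0 UMIs in the other 6 mice, so that each group held 1 mouse with this gene. Xist, the covariate of 1 alternative, was at 1014 to 1180 CPM in those other 6 mice. It was at 57.6 CPM (369 UMIs) in Healthy 227 and 0.509 CPM (12 UMIs) in MI 244. The source of the Xist UMIs in Healthy 227 was not tested. In EC, the summed level of the 17 haematopoietic genes ranged from 37.9 to 138 CPM (counts per 1000000 UMIs) over the healthy mice and from 322 to 525 CPM over the MI mice. The summed level of 11 genes of the response to dissociation ranged from 5981 to 9395 CPM and from 6273 to 8738 CPM. The 12 endothelial genes of the gate summed to 11633 to 13086 CPM in the EC of healthy and 9688 to 11300 CPM in those of MI mice, without overlap, and the part of this in the falls described below was not tested. The 6 lymphatic genes summed to 19.0 to 103 CPM and 38.4 to 219 CPM.

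Over all EC, Lrg1 was 41.8-fold higher after MI in the fit, whereas both inhibitory Smads, both Id genes and Acvrl1 fell. Of the receptors, Tgfbr2 rose and Eng fell slightly, and the changes of Tgfbr1 and Bmpr2 did not pass the test. The fit over 12268 genes (edgeR's quasi-likelihood test on sums per mouse, adjusted p below 0.05) called 2 of the 10 members higher and 6 lower. Of all genes tested it called 38.3%, of which 19.4% of genes were higher and 18.9% lower. The median log2 fold change was -0.54 over the 10 members and -0.02 over all genes. CPM of the groups did not overlap for 7 members, 2 higher and 5 lower in MI, against 36.4% of all genes tested (23.9% higher and 12.5% lower). These values are sums over a mouse's EC, in which more cells of a high-expressing type and more RNA per cell cannot be told apart, and this is why the classes of EC are described separately further on.

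Lrg1 lies on the minus strand of chromosome 17 (GRCm38, chr17:56119678-56122001). It was counted at 15.3, 6.43, 7.10 and 2.91 CPM in Healthy 227, 228, 239 and 240, and at 304, 206, 678 and 201 CPM in MI 244, 250, 255 and 256. Each MI mouse was above each healthy mouse, and MI 255 was more than double any other mouse. Means were 7.94 ± 5.24 CPM (SD, n = 4) and 347 ± 225 CPM (SD, n = 4), and the log2 fold change was 5.38 ± 0.54 (SE, adjusted p = 0.000177). Leaving out each mouse in turn gave log2 fold changes of 4.85 (without MI 255) to 5.89 (without Healthy 227), and the copied cells left out of both libraries gave 5.65. The bases before the start of Lrg1 are shown because this gene had the highest fold change of the members. They are RefSeq sequence of GRCm38.p6, minus strand, chr17:56122002-56122196, written 5′ to 3′ and ending at the last base before the first exon of the GENCODE annotation, with CAGAC or its reverse complement GTCTG, the short Smad-type motif, in capitals.

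Lrg1: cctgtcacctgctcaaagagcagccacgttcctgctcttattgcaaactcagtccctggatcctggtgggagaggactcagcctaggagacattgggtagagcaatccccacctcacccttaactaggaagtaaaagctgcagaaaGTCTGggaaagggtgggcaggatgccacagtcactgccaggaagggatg

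The RefSeq start site of Lrg1 lies 55 bases further into the gene than the GENCODE start. The RefSeq window of 250 bases before and 50 after its start site held 2 matches to CAGAC on either strand, and 49.6% of all 32851 windows of this length held at least 1. TTCNNNGAA, a STAT-type motif that reads the same on both strands, had no match in the window of Lrg1 or of any of the 7 members with a window, and 8.30% of all windows held it.

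**Figure D1:**
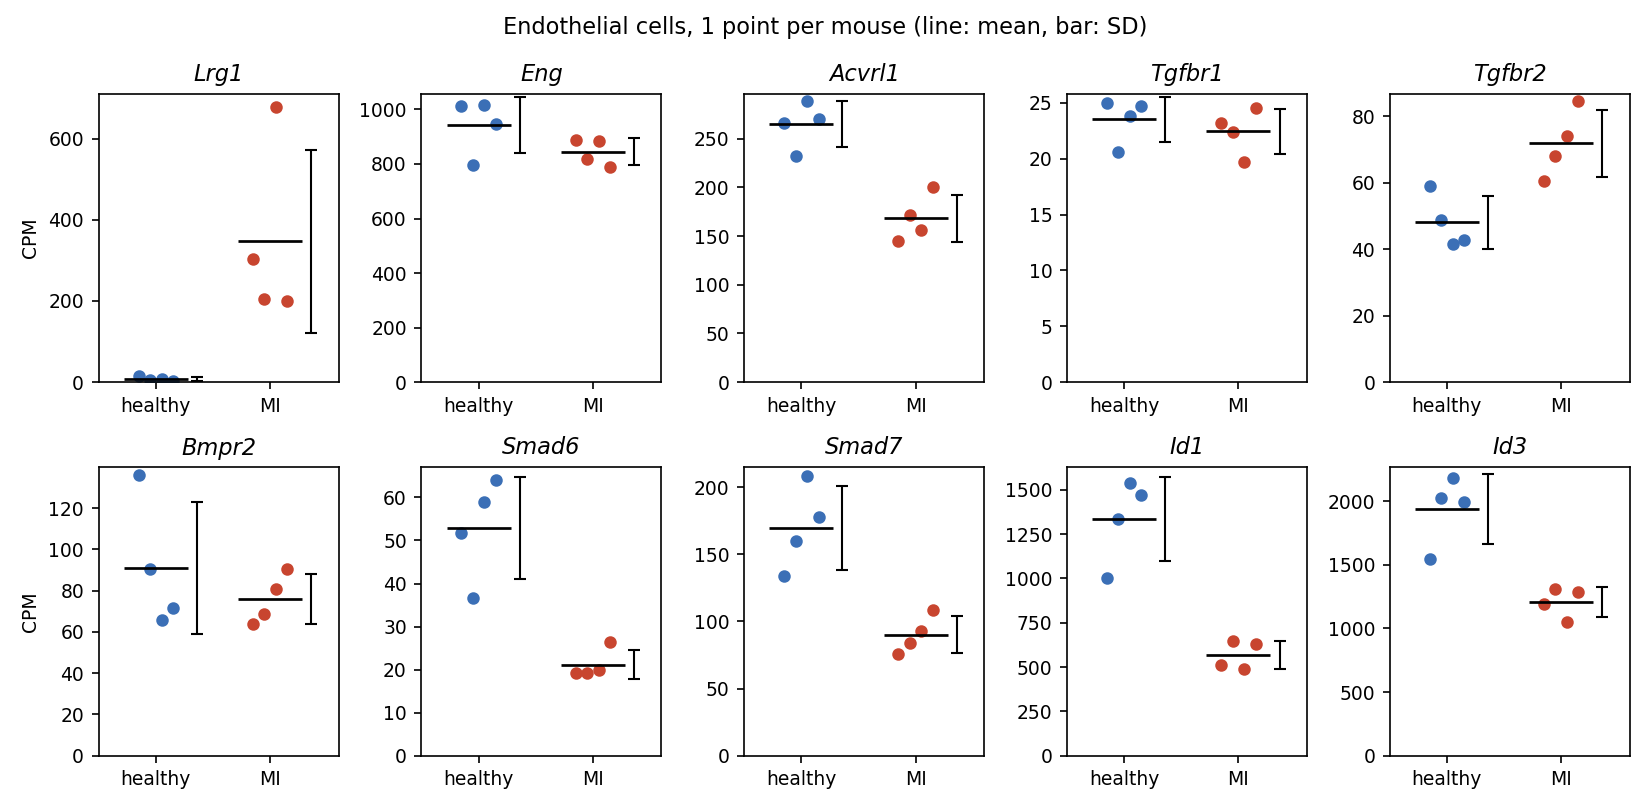
CPM of the 10 members in EC (vertical axes, from 0, a scale for each gene) in 4 healthy mice (blue) and 4 MI mice (red), with the mean as a line and the SD as a bar. Lrg1 lies at 2.91 to 15.3 CPM in healthy and at 201 to 678 CPM in MI mice, and the groups overlap only for Eng, Tgfbr1 and Bmpr2.

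Eng encodes endoglin (GRCm38, chr2:32646595-32682669). Its levels were 1014, 798, 1015 and 947 CPM in the healthy and 889, 820, 885 and 788 CPM in the MI mice. The groups overlapped, since Healthy 228 lay below 3 of the 4 MI mice. The log2 fold change of -0.24 ± 0.09 (SE) had an adjusted p of 0.0478, and this call held in 6 of 18 alternatives. It was lost with 7 of the 8 single mice left out (all but Healthy 228), with adjusted p between 0.0665 and 0.118.

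Acvrl1 (GRCm38, chr15:101128522-101145336) was counted at 266, 232, 289 and 271 CPM in healthy mice. The MI mice had 145, 171, 156 and 201 CPM, all below the lowest healthy mouse. Acvrl1 fell by 0.74 on the log2 scale (SE 0.11, adjusted p = 0.00111), from 265 ± 23.6 CPM to 168 ± 24.1 CPM (SD, n = 4 each).

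Tgfbr2, the type II receptor that binds TGF-beta itself (GRCm38, chr9:116084293-116175360), moved the other way. It had 59.0, 48.9, 41.6 and 42.9 CPM in healthy and 60.6, 67.9, 74.1 and 84.6 CPM in MI mice. The groups did not overlap, though MI 244 was only just above Healthy 227. Tgfbr2 rose by a log2 fold change of 0.50 ± 0.14 (SE, adjusted p = 0.0165), and all 18 alternatives kept the call.

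Tgfbr1 encodes the type I partner of that receptor (GRCm38, chr4:47353222-47414931). It was counted at 25.0, 20.6, 23.8 and 24.8 CPM in healthy and 23.2, 22.4, 19.7 and 24.6 CPM in MI mice. The groups overlapped almost wholly, and the log2 fold change was -0.15 ± 0.11 (SE, adjusted p = 0.281). Over all deposited cells, without the endothelial gate, the value turned to 0.34 with an adjusted p of 0.0219. A Tgfbr1 UMI was found in 11.7% of the MI cells gated as haematopoietic and thinned to 1000 UMIs, against 2.26% of the MI EC.

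Bmpr2, the type II receptor for BMP ligands (GRCm38, chr1:59763400-59879014), had 136, 90.5, 65.8 and 71.8 CPM in healthy mice. The MI mice had 63.7, 68.9, 80.6 and 90.5 CPM, within the healthy range apart from MI 244. Healthy 227 stood above all other mice. The log2 fold change was -0.34 ± 0.21 (SE, adjusted p = 0.224), and without Healthy 227 it was -0.09.

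Smad6 holds back the BMP branch by binding type I receptors and receptor Smads (GRCm38, chr9:63953076-64022059, minus strand). It was counted at 51.7, 36.7, 59.1 and 64.0 CPM in healthy and at 19.2, 19.2, 19.9 and 26.3 CPM in MI mice. All MI mice were below all healthy mice, and 3 of them lay within 1 CPM of each other. Smad6 fell by 1.41 on the log2 scale (SE 0.17, adjusted p = 0.000422). Its order with Id1 depended on the setting, Id1 having fallen further without Healthy 227, without MI 250 and in thinned cells. The stretch before its start is shown because it holds the palindrome GTCTAGAC, the complete Smad-binding element, in capitals. It is RefSeq sequence of GRCm38.p6, minus strand, chr9:64022056-64022309, 5′ to 3′.

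Smad6: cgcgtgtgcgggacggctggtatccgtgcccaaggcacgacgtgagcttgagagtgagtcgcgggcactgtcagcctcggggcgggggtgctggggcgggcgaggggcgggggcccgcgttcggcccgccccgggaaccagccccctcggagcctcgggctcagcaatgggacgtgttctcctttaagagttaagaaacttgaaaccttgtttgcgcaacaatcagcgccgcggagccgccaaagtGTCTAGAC

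The last 4 bases are the first 4 of the annotated transcript, so that the motif spans the start site. GTCTAGAC reads the same on both strands and was found in 70 of the 32851 RefSeq windows (0.213%). Among the 7 members with a window it was found in that of Smad6 alone, while CAGAC on either strand was found in those of Lrg1, Eng, Id3, Tgfbr2 and 1 of the 2 start sites of Tgfbr1. GGCGCC, a GC-rich BMP-type Smad motif that is its own reverse complement, was found in the windows of Bmpr2 and of the other Tgfbr1 start site, and in 11.9% of all windows. These are matches of letters only, and binding was not measured.

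Smad7, which blocks receptors of both branches, had 134, 160, 208 and 177 CPM in healthy and 75.5, 84.2, 92.6 and 109 CPM in MI mice. The groups did not overlap. Smad7 fell by 0.997 on the log2 scale (SE 0.15, adjusted p = 0.000984).

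Id1 and Id3 encode helix-loop-helix proteins that lack a DNA-binding region and hold other factors off their sites, and both are direct targets of BMP-activated Smads in EC. Id1 (GRCm38, chr2:152736251-152737410) was counted at 1004, 1337, 1538 and 1469 CPM in healthy mice and at 511, 645, 488 and 631 CPM in MI mice. Id3 (GRCm38, chr4:136143497-136145755) had 1550, 2030, 2183 and 1995 CPM in healthy and 1191, 1312, 1054 and 1285 CPM in MI mice. Neither gene overlapped between the groups, and Healthy 227 was the lowest healthy mouse for both. Id1 fell by 1.32 on the log2 scale (SE 0.15, adjusted p = 0.000305), and Id3 fell by 0.76 (SE 0.12, adjusted p = 0.00117).

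The haematopoietic genes moved with the group, and their part in these results was not tested. In the EC with no UMI of the 17 haematopoietic genes, a description chosen after the values were seen, Lrg1 was at 2.85 to 9.11 CPM in healthy and at 94.2 to 358 CPM in MI mice. These were 75.4% to 94.7% of the EC in healthy mice and 11.7% to 33.8% in MI mice, where cells of lower depth are favoured. Among them Smad6 was at 54.3 ± 13.1 CPM in healthy and 25.7 ± 5.71 CPM in MI mice, and Id1 at 1365 ± 246 CPM and 727 ± 88.4 CPM (SD, n = 4), again without overlap between the groups. Neutrophils also carry LRG1, and the 7 neutrophil genes summed to 0.265 to 25.5 CPM in healthy and 2.54 to 47.5 CPM in MI mice over all EC.

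Shares of EC with at least 1 UMI gave the same directions at equal depth. For this, 1000 UMIs were drawn from each cell, which left out 1609 EC of the healthy mice with fewer and none of the MI mice. Lrg1 was then found in 0.469%, 0.562%, 0.211% and 0.196% of the EC of the 4 healthy mice and in 10.3%, 8.17%, 19.9% and 7.38% of those of the MI mice. The groups of mice did not overlap, nor did they for Acvrl1, Smad6, Smad7, Id1 and Id3, and for each of these 6 members the two-sided exact permutation test over mice gave its smallest possible p, 0.0286. Over all 12268 genes the shares did not overlap for 25.3% (17.6% higher and 7.74% lower in MI). Without copied cells Smad6 overlapped, with 2.63% in Healthy 228 and 2.92% in MI 256 (exact p = 0.0571), and the other 5 kept p = 0.0286. Id1 was found in 55.7% to 71.4% of the EC of healthy mice and 35.5% to 44.3% of those of MI mice, and Smad6 in 3.13% to 6.07% and 2.03% to 2.92%. The shares of Eng, Tgfbr1, Tgfbr2 and Bmpr2 overlapped between the groups, with exact p of 0.0571 to 0.543. Without thinning, Lrg1 was found in 0.575% of the healthy EC and 26.2% of the MI EC on average over mice, and the differences for Eng, Acvrl1, Tgfbr1, Bmpr2, Smad7 and Id3 turned in sign, with MI higher.

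Free RNA can give UMIs in cells that do not express a gene. In mural-gated cells, pericytes and smooth muscle, an Lrg1 UMI was found in 0 of 296 healthy cells, which allows a share of up to 1.01% (3 cells of 296, for counting error only), and in 0%, 0%, 9.52% and 5.08% of the 31 to 59 cells of MI 244, 250, 255 and 256. Their median depths before thinning were 2919 and 5770 UMIs, against 2077 and 4135 UMIs for the EC. These mural cells are too few to set a background for the healthy EC. In haematopoietic-gated cells of the MI mice, Lrg1 was found in 8.31%, 7.87%, 15.9% and 6.90% of cells, against 10.3%, 8.17%, 19.9% and 7.38% of the EC of the same mice. In haematopoietic-gated cells, Id1 was found in 15.9% (healthy) and 9.48% (MI) of cells and Smad6 in 0.498% and 0.677%, below the EC in each case.

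The EC were then sorted by the UMIs of 4 marker genes in the thinned cells, in a fixed order: Ackr1 (venular, at least 1 UMI), Gja4 (arterial, at least 1), Plvap (at least 2) and Car4 (capillary, at least 1). Of the EC in healthy mice, 744 were Gja4 cells, 2395 Car4 cells, 17 Plvap-high and 1 Ackr1, and 8064 passed no gate. In MI mice, 1316 were Gja4 cells, 1528 Car4 cells, 952 Plvap-high and 281 Ackr1, and 11952 passed no gate. For each of the arterial, capillary and venular names, 5 genes that no gate used were listed, and 1 of each is given here, in MI mice only. Those given followed the names. Gja5 had a mean of 297 CPM in Gja4 cells and 6.13 CPM in Car4 cells. Gpihbp1 had 2417 CPM in Car4 cells and 561 CPM in Ackr1 cells. Selp had 586 CPM in Ackr1 cells and 4.84 CPM in Car4 cells. A class was used in a mouse with at least 20 of its cells, which left 3 MI mice for Ackr1 cells and no healthy mouse for Plvap-high or Ackr1 cells.

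In MI mice, Lrg1 was graded over these classes by more than an order of magnitude. It was lowest in Car4 cells, with 43.0, 36.7, 74.3 and 64.1 CPM in MI 244, 250, 255 and 256. The cells that passed no gate followed, with 116, 120, 190 and 122 CPM. Gja4 cells had 234, 157, 236 and 120 CPM, which overlapped the ungated cells over mice. Within mice, Gja4 cells were above the ungated cells in MI 244, 250 and 255, and just below them in MI 256 (120 against 122 CPM). This pair of classes was not tested. Plvap-high cells had 1644, 1400, 1872 and 1271 CPM, and Ackr1 cells had 3559, 2427 and 3926 CPM in MI 244, 250 and 255. Both of these classes lay above every mouse of the other classes, and every Ackr1 value lay above every Plvap-high value.

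**Figure D2:**
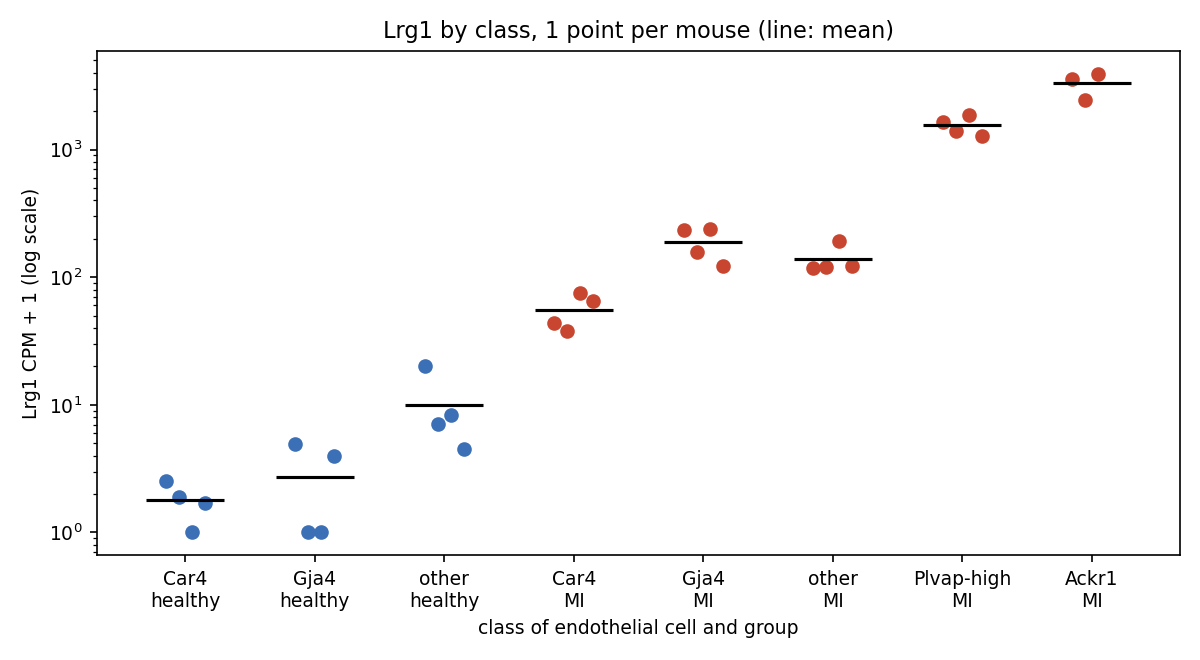
Lrg1 level as CPM + 1 on a log scale (vertical axis) in each class of EC with at least 20 cells in a mouse (horizontal axis), with 1 point per mouse and a line at the mean. Means in MI mice ran from 54.5 CPM in Car4 cells to 3304 CPM in Ackr1 cells, and no healthy mouse was above 19.0 CPM in any class.

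Against the Car4 cells of the same MI mice, in 1 fit over 10417 genes with the mouse as a term, Lrg1 was higher by a log2 fold change of 1.78 ± 0.15 in Gja4 cells, 4.86 ± 0.14 in Plvap-high cells and 5.89 ± 0.15 in Ackr1 cells (SE, adjusted p = 1.06e-09, 7.91e-19 and 8.42e-20). Leaving out 1 mouse at a time, the value for Plvap-high cells was 4.69 to 5.10. At 1000 UMIs per cell, Lrg1 was found in 2.88% to 4.196% of the Car4 cells of a MI mouse, 5.08% to 13.8% of Gja4 cells, 47.6% to 62.5% of Plvap-high cells and 65.7% to 80.6% of Ackr1 cells (3 mice). Plvap-high and Ackr1 cells did not overlap with each other or with any other class, and lay above the mural-gated cells of every MI mouse. The median depths of these classes before thinning were 3257.5, 4035, 6312.5 and 6870 UMIs, in the same order.

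Plvap-high cells made up 3.10% to 11.1% of the EC of a MI mouse but held 36.5% to 49.7% of the Lrg1 UMIs. Ackr1 cells were 0.472% to 5.19% of the EC and held 9.81% to 40.5% of these UMIs, the highest share of both in MI 255, the mouse with the highest Lrg1 level. Car4 cells were 3.83% to 13.8% of the EC and held 0.312% to 3.19% of the Lrg1 UMIs. The 17 Plvap-high cells of healthy mice, too few to compare, held 32 Lrg1 UMIs in 62484 UMIs, 512 CPM when pooled.

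Within Car4 and Gja4 cells, Lrg1 passed the filter on low counts through the MI mice alone, so its change there is given as counts, without a test. In Car4 cells the healthy mice held 2, 1, 0 and 1 Lrg1 UMIs and in Gja4 cells 1, 0, 0 and 1. As pooled UMIs, 4 in healthy and 293 in MI Car4 cells gave a ratio of 62.7 (exact 95% counting interval 24.2 to 232), and 2 and 1307 in Gja4 cells gave a ratio of 174 (47.9 to 1435). These intervals cover counting error only and take no account of the spread between mice, and the copied cells enter the healthy totals more than once. Without the copies the same UMIs gave ratios of 48.8 (18.9 to 180.4) in Car4 cells and 93.6 (25.8 to 773) in Gja4 cells. With a mouse left out and copies kept, the ratio in Gja4 cells was 298 without Healthy 227, 280.4 without Healthy 240 and 105.2 without Healthy 239, and that in Car4 cells was 46.3 to 93.7. Both sets of ratios are descriptions chosen after the values were seen. The levels of Car4 cells in the MI mice, 43.0, 36.7, 74.3 and 64.1 CPM, were above those of the mural-gated cells of the same mice (10.8, 14.0, 49.2 and 60.5 CPM, from 2 to 23 UMIs), but at 1000 UMIs per cell their share of cells with a UMI was below that of the mural-gated cells in MI 255 and MI 256. Haematopoietic-gated cells were above Car4 cells in every MI mouse, by level (150.2 to 428 CPM) and by share (6.90% to 15.9%). They were also above the cells that passed no gate in all 4 MI mice by both measures, and above Gja4 cells in 3 of 4 by level (all but MI 250) and in 3 of 4 by share (all but MI 244). The part of free RNA in the Lrg1 changes within these 3 classes was not tested. In the cells that passed no gate, where healthy mice held 20 to 86 Lrg1 UMIs, levels rose from 19.0, 6.09, 7.36 and 3.53 CPM to 116 to 190 CPM (log2 fold change 3.88 ± 0.37, SE, adjusted p = 0.000166). With a mouse left out this value was 3.59 to 4.52, the highest without Healthy 227.

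Within Car4 cells, the fall of Acvrl1, both inhibitory Smads and both Id genes was also called. The gating gene Car4 was itself lower, at 255 to 297 CPM over the EC of healthy mice and 34.9 to 154 CPM in MI mice. Car4 cells made up 19.0% to 24.2% and 3.83% to 13.8% of the thinned EC. Whether the gate takes the same kind of cell in both groups was not tested. Beside Lrg1, the fit over 8863 genes called 0 members higher and 5 lower, against 14.6% of all genes tested (7.02% higher and 7.62% lower). Id1 had 1013, 1345, 1710 and 1601 CPM in Car4 cells of healthy mice and 711, 826, 646 and 778 CPM in those of MI mice, without overlap. It fell by 0.99 on the log2 scale (SE 0.15, adjusted p = 0.000941). The log2 fold changes of the others were -0.94 ± 0.14 for Smad7, -1.098 ± 0.24 for Smad6, -0.59 ± 0.12 for Id3 and -0.58 ± 0.13 for Acvrl1 (SE, adjusted p = 0.000721, 0.00796, 0.00597 and 0.0102). Eng (-0.31, adjusted p = 0.0590), Bmpr2 (-0.52, adjusted p = 0.0709), Tgfbr1 (-0.48, adjusted p = 0.161) and Tgfbr2 (0.13, adjusted p = 0.629) did not pass. Bmpr2 passed in Car4 cells without copied cells (-0.67, adjusted p = 0.0202), without Healthy 239 (-0.64, adjusted p = 0.0326) and without MI 256 (-0.64, adjusted p = 0.0375), and Eng passed without Healthy 228 (-0.37, adjusted p = 0.0446) and without MI 256 (-0.33, adjusted p = 0.0472). With a gate of 2 Car4 UMIs, at which 3.35% of 5201 genes were called, Lrg1 and Tgfbr1 were not tested and 2 members, Smad7 and Id1, were called. Acvrl1 (-0.33, adjusted p = 0.382), Smad6 (-1.188, adjusted p = 0.0850) and Id3 (-0.44, adjusted p = 0.0928) no longer passed there, the value of Smad6 being no smaller than before.

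Within Gja4 cells, the same 5 members were lower and Tgfbr2 was higher, against 14.1% of 8275 genes called (7.12% higher and 7.01% lower). Smad6 had 225, 122, 164 and 232 CPM in Gja4 cells of healthy mice and 70.2, 73.9, 51.5 and 79.0 CPM in those of MI mice. It fell by 1.45 on the log2 scale (SE 0.19, adjusted p = 0.000138), and the groups did not overlap. Id1 fell by 1.07 (SE 0.14, adjusted p = 0.000138), from 1795 to 1945 CPM down to 759 to 1154 CPM. Tgfbr2 rose by 0.68 (SE 0.16, adjusted p = 0.0102), from 90.7, 54.0, 70.05 and 93.9 CPM to 114, 118, 125 and 136 CPM. With a gate of 2 Gja4 UMIs the call of Acvrl1 was lost (-0.41, adjusted p = 0.174), where 5.95% of genes were called. The call of Tgfbr2 was lost without Healthy 228 (adjusted p = 0.0518) or Healthy 239 (adjusted p = 0.0563). Without copied cells, Eng also passed in Gja4 cells at -0.41 (adjusted p = 0.0310). In Gja4 cells the dissociation genes summed to 10684 to 13180 CPM in healthy and 6177 to 9715 CPM in MI mice, and their part in these falls was not tested.

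**Figure D3:**
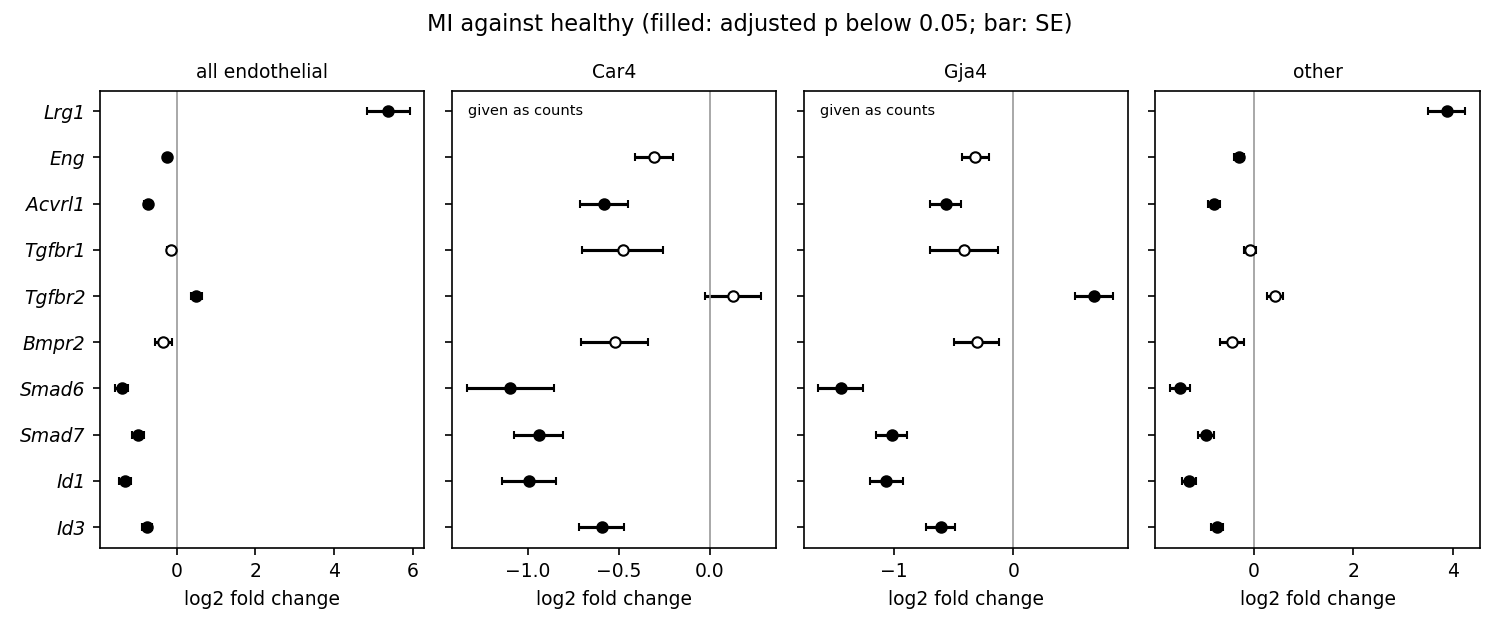
Log2 fold change of MI against healthy (horizontal axes, each with its own range) of the 10 members (rows) over all EC, in Car4 cells, in Gja4 cells and in cells that passed no gate, with the SE as a bar and filled points for adjusted p below 0.05. Lrg1 is plotted over all EC and in the cells that passed no gate, where it is the highest member, and Acvrl1, Smad6, Smad7, Id1 and Id3 are filled and below 0 in all 4.

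In the cells that passed no gate, 7 members were called, against 34.2% of 11896 genes (16.8% higher and 17.4% lower): Lrg1 higher, and Smad6 (-1.47), Id1 (-1.3025), Smad7 (-0.96), Acvrl1 (-0.79), Id3 (-0.74) and Eng (-0.29) lower. The call of Eng was lost with 6 of the 8 single mice left out (adjusted p = 0.0594 to 0.0817), Healthy 228 and MI 256 being the exceptions. Tgfbr2 was at the threshold (0.43, adjusted p = 0.0501) and passed without Healthy 227 (0.55, adjusted p = 0.0219) or MI 244 (0.53, adjusted p = 0.0300). The difference of the MI change between Gja4 and Car4 cells was tested as an interaction. Lrg1, with 2 and 4 UMIs in the healthy mice, is left out here. The edgeR fit called 0 of the other 9 members, against 0.95% of 10206 genes (0.47% higher and 0.48% lower), and no other tool was run. At an unadjusted p below 0.05 there was 1 member, Tgfbr2, with a difference of 0.52 ± 0.20 (SE, adjusted p = 0.311). In simulated data, with 1 dispersion for all genes and no copied cells, this fit recovered 46% of 2-fold and 7% of 1.5-fold differences. For Id1 the difference was -0.07 ± 0.10 (SE).

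The classes also differed from each other in the receptors and inhibitory Smads, before and after MI. Gja4 cells of healthy mice were higher than Car4 cells of the same mice in 7 of 9 members tested (17.1% of 8710 genes called, 8.96% higher and 8.13% lower). Smad6 led with 225, 122, 164 and 232 CPM in Gja4 cells against 37.4, 24.5, 47.2 and 37.3 CPM in Car4 cells, a log2 difference of 2.25 ± 0.14 (SE, adjusted p = 1.21e-13). Smad7 was higher by 0.83 ± 0.10, Tgfbr2 by 0.75 ± 0.18, Acvrl1 by 0.74 ± 0.08, Bmpr2 by 0.48 ± 0.13, Eng by 0.40 ± 0.06 and Id1 by 0.37 ± 0.08 (SE). Id3 (0.09, adjusted p = 0.425) and Tgfbr1 (-0.12, adjusted p = 0.846) did not pass, and Lrg1 had too few UMIs to be tested. Without copied cells, Bmpr2 was at 0.46 with an adjusted p of 0.0522. The dissociation genes moved with this contrast, at 10684 to 13180 CPM in the Gja4 cells and 4885 to 9279 CPM in the Car4 cells of healthy mice, without overlap, and their part in these differences was not tested.

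In MI mice, Gja4 cells were higher than Car4 cells in 8 of 10 members (15.7% of genes called, 8.67% higher and 7.03% lower). Beside Lrg1 these were Smad6 (1.93 ± 0.18), Tgfbr2 (1.296 ± 0.13), Smad7 (0.79 ± 0.12), Acvrl1 (0.77 ± 0.10), Bmpr2 (0.67 ± 0.12), Eng (0.37 ± 0.07) and Id1 (0.28 ± 0.08, log2 differences with SE). Here the dissociation genes overlapped, at 6177 to 9715 CPM in Gja4 and 7140 to 9606 CPM in Car4 cells. The call of Id1 was lost without MI 250 (adjusted p = 0.0736) or MI 256 (adjusted p = 0.0619), and with a gate of 2 UMIs (0.32, adjusted p = 0.197). Tgfbr1 (-0.01) and Id3 (0.07) did not pass.

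Plvap-high cells, high in Lrg1, were also higher than Car4 cells in Eng, Tgfbr2 and Bmpr2, and lower in Smad6, Id1 and Id3 (26.9% of genes called, 13.8% higher and 13.1% lower). Id1 had 390, 429, 398 and 481 CPM in Plvap-high cells, below every mouse's Car4 cells, and a log2 difference of -0.81 ± 0.08 (SE, adjusted p = 2.56e-08). Id3 was lower by 0.45 on the log2 scale (SE 0.08, adjusted p = 4.64e-05). Smad6 had 12.4, 6.18, 10.3 and 4.83 CPM, from 4 to 30 UMIs per mouse, a log2 difference of -0.83 ± 0.26 (SE, adjusted p = 0.0178). That call was lost without MI 256 (adjusted p = 0.189) and with stricter gates (adjusted p = 0.211). Eng was higher by 0.37 ± 0.07, Tgfbr2 by 0.76 ± 0.13 and Bmpr2 by 0.73 ± 0.12 (SE). Acvrl1 (-0.14, adjusted p = 0.345), Tgfbr1 (0.19, adjusted p = 0.637) and Smad7 (-0.35, adjusted p = 0.0514) did not pass, and Smad7 passed without MI 250 (adjusted p = 0.0205) and without cells of more than 1 gating gene (adjusted p = 0.0366). In these Plvap-high cells the dissociation genes summed to 4852 to 5999 CPM, and in the Car4 cells to 7140 to 9606 CPM, without overlap, and their part in these differences was not tested.

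Ackr1 cells were higher than Car4 cells in Lrg1, Eng and Bmpr2 and lower in Id1 and Id3 (21.0% of genes called, 11.2% higher and 9.82% lower). Eng had 1494, 1226 and 1336 CPM in Ackr1 cells of MI 244, 250 and 255, against 870, 829 and 794 CPM in their Car4 cells, a log2 difference of 0.69 ± 0.09 (SE, adjusted p = 7.93e-07). Bmpr2 was higher by 1.001 ± 0.16 (SE, adjusted p = 3.60e-05). Id1 was lower than in Car4 cells with a log2 difference of -0.59 ± 0.10 (SE, adjusted p = 0.000103), and Id3 with -0.38 ± 0.09 (SE, adjusted p = 0.00273). The call of Id3 was lost without MI 244 (adjusted p = 0.0548) or MI 250 (adjusted p = 0.0539). Smad6 (-0.11, adjusted p = 0.887), Smad7 (0.01, adjusted p = 0.981), Acvrl1 (-0.07, adjusted p = 0.786), Tgfbr1 (0.34, adjusted p = 0.576) and Tgfbr2 (0.52, adjusted p = 0.0601) did not pass, and the value of Tgfbr1 turned to -1.036 without MI 255. The haematopoietic genes summed to 499.6 to 539.5 CPM in these Ackr1 cells and to 327.4 to 493.0 CPM in the Car4 cells of MI mice, without overlap. Their part in these differences was not tested. The dissociation genes overlapped, at 6314 to 9594 CPM and 7140 to 9606 CPM.

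**Figure D4:**
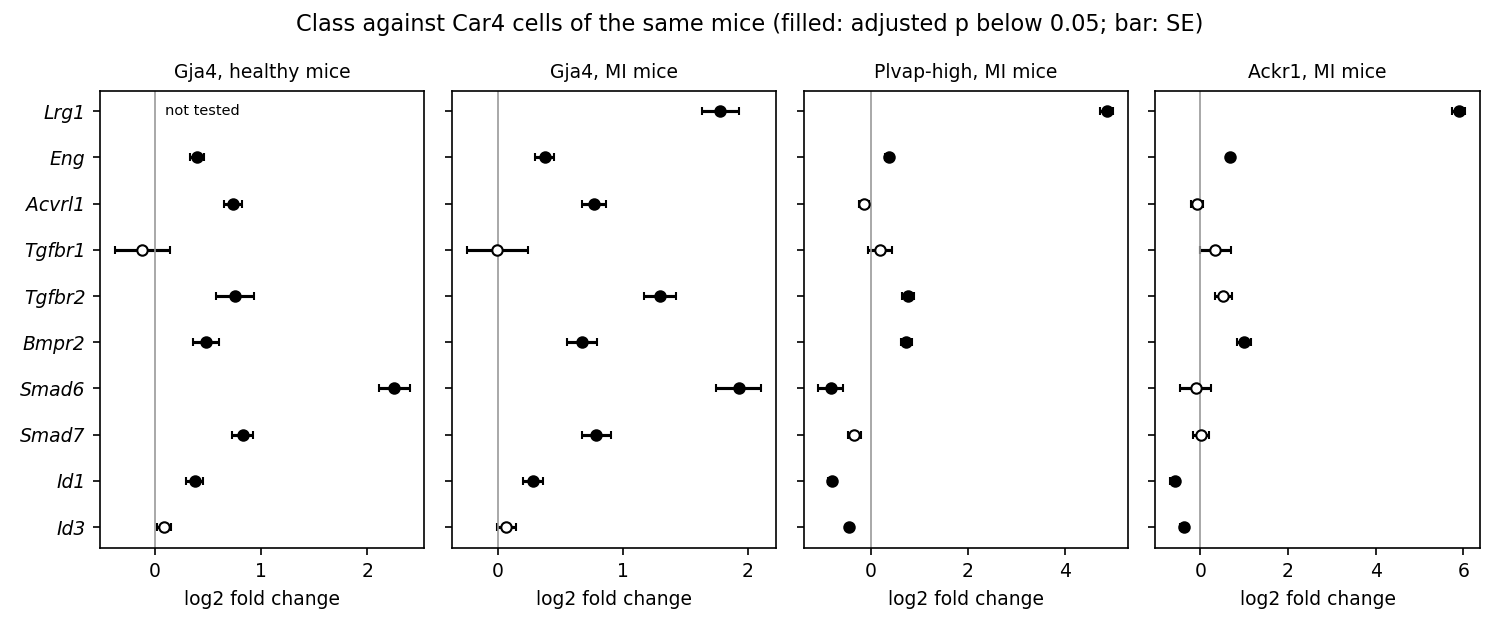
Log2 difference of a class from the Car4 cells of the same mice (horizontal axes) for the 10 members (rows), in Gja4 cells of healthy and of MI mice and in Plvap-high and Ackr1 cells of MI mice, with the SE as a bar and filled points for adjusted p below 0.05. Smad6 is above 0 in Gja4 cells (2.25 and 1.93) and below 0 in Plvap-high cells (-0.83), and Lrg1 reaches 5.89 in Ackr1 cells.

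The order of the classes in MI mice therefore differed by gene. For Smad6 the means ran from 8.44 ± 3.55 CPM in Plvap-high cells through 14.3 ± 6.60 CPM in Ackr1 cells (n = 3), 17.6 ± 5.70 CPM in Car4 cells and 17.8 ± 3.12 CPM in ungated cells, to 68.7 ± 12.01 CPM in Gja4 cells (SD, n = 4 unless stated). All but the Gja4 cells overlapped with their neighbours in this order. For Id1 the order was Plvap-high (425 ± 41.6 CPM), Ackr1 (452 ± 20.7 CPM), ungated (530 ± 65.2 CPM), Car4 (740 ± 78.5 CPM) and Gja4 cells (929 ± 194 CPM). Here Plvap-high and Ackr1 cells overlapped, as did Ackr1 and ungated cells and Car4 and Gja4 cells, whereas every Car4 value lay above every ungated value. For Eng the mean was highest in Ackr1 cells (1352 ± 134 CPM), followed by Gja4 (1106 ± 113 CPM) and Plvap-high cells (1089 ± 143 CPM), and each of these overlapped with the next over mice. Within mice, Eng was higher in Ackr1 than in Gja4 cells in 3 of 3 mice, and Id1 was higher in Gja4 than in Car4 cells in 4 of 4. Smad6 and Id1 were both lower in Plvap-high than in Ackr1 cells in 3 of 3 mice. The other neighbours that overlapped went both ways over the mice.

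The gate on Plvap is 1 threshold on a count, and the members were also followed over that count. In MI mice, mean Lrg1 was 95.6 ± 29.5 CPM in EC with 0 Plvap UMIs, 537 ± 95.5 CPM with 1, 1211 ± 358 CPM with 2 and 2203 ± 638 CPM with 3 or more (SD, n = 4 mice, at least 56 cells per mouse and count). Each of the 4 MI mice rose at each step. In the EC with 0 Plvap UMIs, healthy mice had 6.63 ± 5.06 CPM of Lrg1. Eng rose in each MI mouse at each step, from a mean of 799 ± 23.4 CPM to 1224 ± 138 CPM. Smad6 went from 22.7 ± 3.33 CPM to 10.2 ± 1.88 CPM, and Id1 from 591 ± 79.9 CPM to 435 ± 38.5 CPM, with the lowest mean of 403 ± 41.1 CPM at 2 UMIs. These are descriptions of cells that share a library, without a test. The counts of Plvap take in cells of all classes. Without the Ackr1 and Gja4 cells, a description chosen after the values were seen, mean Lrg1 was 90.2 ± 26.2, 472 ± 62.0, 1094 ± 220 and 1844 ± 352 CPM over the 4 steps and still rose at each step in each mouse, Eng was lower with 2 than with 1 Plvap UMI in MI 256, and Smad6 was at 17.8 ± 3.03 CPM with 0 Plvap UMIs and at 8.52 ± 3.13 CPM with 3 or more.

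**Figure D5:**
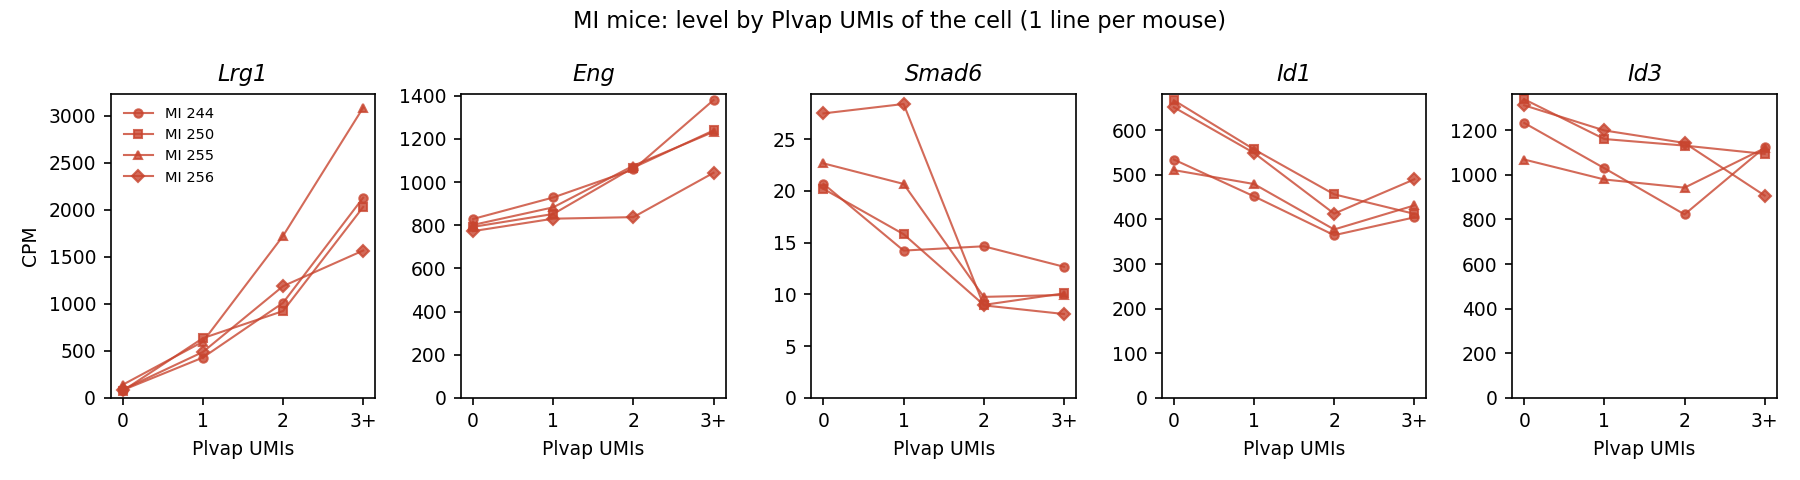
CPM of 5 members (vertical axes, from 0) in EC of MI mice with 0, 1, 2 or at least 3 Plvap UMIs after thinning to 1000 UMIs (horizontal axes), with 1 line per mouse. Lrg1 and Eng are higher at each step in all 4 mice, and Smad6, Id1 and Id3 are lower at 2 Plvap UMIs than at 0 in all 4 mice.

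The likeness of other genes to Lrg1 and Id1 was measured as Pearson's r of log2(CPM + 20) over 31 units of mouse and class, among the 6209 genes whose mean over the units reached 20 CPM. The units share libraries and classes, so r is given as a description. The genes most like Lrg1 were 2200002D01Rik (r = 0.976), Hif1a (0.975), the hypoxia-regulated transcription factor, Lgmn (0.968), the lysosomal protease legumain, Tmem176b (0.965) and Fam167b (0.964). Hif1a ran from 32.9 to 236 CPM over the units. The genes most like Id1 were Id3 (r = 0.981), Gata2 (0.944), a transcription factor of endothelium and blood, Gstm1 (0.931), Camk2n1 (0.930) and Tanc1 (0.928).

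The pathway beyond the 10 members was read from the same fit over all EC. Of 49 other ligands, receptors, Smads, regulators and targets, 42 were tested, 17 were higher, 10 were lower and 15 did not pass, and 7 had too few counts. Of all genes in this fit 19.4% were higher and 18.9% lower. The median log2 fold change was 0.04 over the pathway genes and -0.02 over all genes. Of the ligands, 4 of 8 tested were higher and 2 lower. Of the other receptors and co-receptors, 1 of 5 tested was lower and none higher. Of the other Smads, 3 of 6 were higher and 2 lower, of the regulators 7 of 14 were higher and 2 lower, and of the other targets 3 of 9 were higher and 3 lower. Within Car4 cells, 4 of 27 pathway genes tested were higher and 6 lower in MI (median log2 fold change -0.28). In Gja4 cells 9 of 32 were higher and 5 lower (-0.003), and in the cells that passed no gate 15 of 41 and 10 (-0.04). Of all genes, 14.6%, 14.1% and 34.2% were called in these fits.

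Among called pathway genes whose mean over the 8 mice reached 20 CPM, Hey1, a target shared with Notch, fell from 93.9 to 209 CPM to 71.4 to 92.4 CPM (log2 fold change -0.96 ± 0.21, SE, adjusted p = 0.00557). Bmp4, a BMP ligand, rose by 1.02 ± 0.16, from 20.5 to 31.7 CPM to 45.8 to 66.5 CPM. Of the regulators, Fstl1, a follistatin-like secreted protein, rose by 1.39 ± 0.18, Htra1, a secreted protease, by 1.33 ± 0.18, Pmepa1, a TGF-beta-induced inhibitor of receptor Smads, by 1.04 ± 0.16, and Bambi, a pseudoreceptor that lacks the kinase, by 0.76 ± 0.13 (SE). The common Smad, Smad4, fell by 0.70 (SE 0.17, adjusted p = 0.00920). The ubiquitin ligase gene Smurf2 fell by 0.64 (SE 0.13), Id2 by 0.50 (SE 0.10), Ltbp4, which binds latent TGF-beta, by 0.44 (SE 0.14), and the matricellular gene Cyr61 by 0.34 (SE 0.11).

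These genes were read over the classes of MI mice as well. Against Car4 cells, Plvap-high cells were higher in 19 and lower in 7 of 39 pathway genes tested, Gja4 cells higher in 19 and lower in 5, and Ackr1 cells higher in 14 and lower in 3. Of all genes, 26.9%, 15.7% and 21.0% were called in these contrasts. Bmp4 was higher in Gja4 cells by 0.69 ± 0.15, in Plvap-high cells by 1.08 ± 0.15 and in Ackr1 cells by 2.0003 ± 0.18. Hey1 was higher in Gja4 cells by 2.61 ± 0.11 and lower in Plvap-high cells (-0.41 ± 0.14) and Ackr1 cells (-0.999 ± 0.23). Id2 went against Id1 and Id3: it was higher than in Car4 cells by 0.41 ± 0.12 in Plvap-high cells and by 0.95 ± 0.16 in Ackr1 cells (log2 differences with SE, adjusted p = 0.0131 and 6.63e-05).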

How the data were processed

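Per the labels, 1 10X library was sequenced per mouse. The submitters' processing notes list Cell Ranger, mm10, R 3.5.2 and Seurat 2.3. The values deposited by the authors are whole-number counts of UMIs per gene and cell, without normalization, and every cell had at least 403 genes. Groups came from the labels. Counts were summed per mouse, or per mouse and class, and tested with edgeR 4.0.16 in R 4.3.3 (TMM, filterByExpr, quasi-likelihood test, Benjamini-Hochberg at 0.05 over all genes tested). Contrasts of classes had the mouse as a term. CPM are per 1000000 UMIs of the cells summed. Shares of cells were tested between mice by exact permutation (two-sided, 70 splits). Scripts ran in Python 3.11.15 and were tested on simulated data: over EC, 100% of 2-fold and 70% of 1.5-fold changes were recovered among 12349 genes. Depth per mouse is given in the report.

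The members and gene lists were chosen with earlier results of these data known. The text names all 10 members, the 6 highest and 6 lowest called pathway genes whose mean reached 20 CPM, of which 1 is not reported here, and the 5 genes most like Lrg1 and Id1. Doublets were not called, and alternatives left out cells with UMIs of more than 1 gating gene. DESeq2 1.42.0, RLE scaling, no filter, other cells and depths, copies left out, Xist as a covariate and each mouse left out were alternatives. Promoters came from RefSeq (7 of 10 members matched). Nothing says that a mouse was sampled more than once, apart from the copied cells.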

Additional observations from a re-analysis of the deposited data

Results flagged for a closer look

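A single mouse stood apart from the other 3 of its group in 3 values, as the gap to its nearest neighbour divided by the range of the group. Chance alone gives about 1 such case in 20 groups. How many groups were screened is not given here, so these 3 values cannot be set against that rate and may be no more than chance gives. For Lrg1 in the ungated EC of MI mice this ratio was 0.927, from MI 255 at 190 CPM against 116 to 122 CPM. For Smad6 over all EC of MI mice it was 0.898, from MI 256 at 26.3 CPM against 19.2 to 19.9 CPM. For Id3 in Car4 cells of MI mice it was 0.871, from MI 255 at 1219 CPM against 1472 to 1509 CPM.

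Lrg1 also had UMIs in cells that the comparisons left out. In mural-gated cells, MI mice had 10.8, 14.0, 49.2 and 60.5 CPM (2 to 23 UMIs) and all 4 healthy mice had 0 UMIs. In haematopoietic-gated cells, the 4 MI mice had 242, 153, 428 and 150.2 CPM, and the healthy mice had 8.88 to 47.5 CPM. Their order over the MI mice was that of the EC, with MI 255 highest and MI 256 lowest.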

How the results depend on the processing

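Calls over all EC kept their direction and side of the threshold in 18 of 18 alternatives for Lrg1, Acvrl1, Tgfbr2, Smad6, Smad7, Id1, Id3 and Bmpr2, in 17 for Tgfbr1 and in 6 for Eng, and leaving out a mouse left 7 to 8 members called. Tgfbr1 turned to 0.34 over all deposited cells, a setting that adds cells of other types. Sums of thinned cells, without the 1609 healthy EC below 1000 UMIs, called 2619 genes in place of 4696. A gate of 2 Car4 UMIs left 2 members called within Car4 cells. Without thinning, the difference in share of cells turned to 14.4 percentage points for Eng, 9.98 for Acvrl1, 5.53 for Tgfbr1, 12.2 for Bmpr2, 3.201 for Smad7 and 2.37 for Id3, where MI cells were deeper. With adjustment over the 10 members, 6 shares passed, and 0 did for at least 2 UMIs, for copies left out or without any 1 MI mouse (0 to 7 over single mice left out). Since at least 6 members at the smallest exact p, 0.0286, are needed for any to pass, these counts do not show a loss: without copies, 5 members stayed at it, and the difference for Lrg1 was 11.2 against 11.1 percentage points. Over all values of single members, 802 kept their call, 70 lost it and 13 gained it. A further 7 were counted as turned, which are those named in this paragraph. Some values changed sign without passing in either setting and are counted among the 802. An example is Tgfbr1 in Gja4 against Car4 cells of healthy mice, at -0.12 and, without copied cells, at 0.28. Ackr1 cells with 2 UMIs were too few to fit, and the cause of the other changes was not tested. No paired analysis was possible because no mouse number occurs in both groups. Precision is limited by 4 mice per group and, for Lrg1 in healthy classes, by counts of a few UMIs.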
